A study of Homo sapiens with 16 samples.

Results

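10 human protein kinase genes that start, time or check cell division were followed after knockdown of YES1: the Polo-like kinases PLK1, PLK2, PLK3 and PLK4, the Aurora kinases AURKA and AURKB, NEK2, TTK, BUB1 and CDK1. They are the rows of the count tables of both lines whose GENCODE 29 symbol is one of these names, 10 of 58735 genes, and all 10 passed the filter on low counts in both lines. RNA was sequenced from MDA-MB-231 and SUM159PT, established cell lines of triple-negative breast cancer labelled as wild type. The libraries are labelled 48 h, and cells had been transfected using Lipofectamine2000 with an siRNA directed to YES1, a tyrosine kinase of the Src family (siYES1), or to firefly luciferase (siNS), so the controls also received lipid and an siRNA. Each line had 4 libraries per siRNA, which the design text calls technical replicates, so every p-value measures only the spread between these samples. The name SUM159PT rests on titles and labels, since the column names of its counts start with letters and digits that are not short for it. The series' title ties YES1 to centrosomes, chromosomal stability and response to therapy, and the comparison asks how the messages of the mitotic kinases stood once YES1 was reduced.

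CDK1 bound to cyclin B is the kinase that drives entry into mitosis, and cells destroy its cyclin to leave it. PLK1 and AURKA activate CDK1 and build the spindle poles, PLK4 starts centriole duplication, NEK2 separates the centrosomes, AURKB corrects the attachment of chromosomes, and TTK (also called MPS1) and BUB1 run the checkpoint that waits for them. Messages of most of these kinases are made late in the cell cycle, whereas PLK2 and PLK3 are known as genes induced by serum, stress and p53, with roles outside mitotic entry.

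Promoter sequence is shown as background. 8 of the 10 messages rose in both lines and the 2 stress-induced Polo kinases did not. The part of promoter sequence in this was not tested. RefSeq windows of GRCh38.p14, 250 bases before to 50 after an annotated start, were matched for 8 of the 10 genes and gave 12 windows. They were searched on both strands for the cell-cycle homology region, which the DREAM and MuvB complexes bind in late cell-cycle genes and which is spelled TTTGAA in many of them, with TTCGAA as a known variant and TTTAAA as another. The search also took CCAAT, the box bound by NF-Y, and TGACGT, the core of the cAMP response element. No matches overlapped. The stretches below run from 110 bases before to 20 after the start, 5′ to 3′ on the gene's strand, with the matched words of either strand in capitals. PLK1 (chr16:23678779-23678908, plus strand), the second start of CDK1 (chr10:60778368-60778497, plus strand), BUB1 (chr2:110678044-110678173, minus strand) and NEK2 (chr1:211675602-211675731, minus strand) come from messages that rose in both lines. They were picked without a stated rule and do not represent every such message. PLK2 (chr5:58460067-58460196, minus strand) and PLK3 (chr1:44800267-44800396, plus strand) come from the messages that did not rise in both lines. Of these, PLK3 rose in SUM159PT.
PLK1: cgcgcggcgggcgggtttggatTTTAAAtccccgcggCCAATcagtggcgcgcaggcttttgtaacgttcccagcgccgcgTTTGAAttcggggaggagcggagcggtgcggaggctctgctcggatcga
CDK1: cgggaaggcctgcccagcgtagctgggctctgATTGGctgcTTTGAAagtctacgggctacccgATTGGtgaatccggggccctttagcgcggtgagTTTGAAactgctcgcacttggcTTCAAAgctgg
BUB1: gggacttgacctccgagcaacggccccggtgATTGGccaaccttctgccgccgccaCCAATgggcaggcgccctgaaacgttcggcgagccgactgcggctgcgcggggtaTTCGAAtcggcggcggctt
NEK2: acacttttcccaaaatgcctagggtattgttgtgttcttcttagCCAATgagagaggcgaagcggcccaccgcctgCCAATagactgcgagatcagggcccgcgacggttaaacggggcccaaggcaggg
PLK2: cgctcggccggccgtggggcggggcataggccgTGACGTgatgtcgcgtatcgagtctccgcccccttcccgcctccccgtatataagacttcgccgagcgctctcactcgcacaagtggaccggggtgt
PLK3: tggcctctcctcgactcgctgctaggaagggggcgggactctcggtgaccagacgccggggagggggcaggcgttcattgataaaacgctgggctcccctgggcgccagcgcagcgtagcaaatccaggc

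PLK1 held TTTGAA 29 to 24 bases before the start, CCAAT 73 to 69 bases before it, and TTTAAA at 88 to 83 and again upstream of the stretch shown. The second CDK1 window held TTTGAA 3 times and CCAAT 2 times. BUB1 held TTCGAA at bases 2 to 7 after the start and CCAAT 2 times, and NEK2 held CCAAT 2 times with none of the cell-cycle words. A cell-cycle word was found in 5 of the 12 windows, from PLK1, PLK4, BUB1 and CDK1, against 25.1% of the 35116 windows of all genes. CCAAT was found in 8 of the 12, against 34.6%. Windows of the same gene can overlap: the 2 AURKB windows share most of their bases and the same CCAAT. Counted by gene, a cell-cycle word was found in 4 of 8 and CCAAT in 6 of 8. The shares above are of windows, and no share of all genes counted this way was computed. The PLK2 window held TGACGT 77 to 72 bases before the start and no cell-cycle word or CCAAT, and the PLK3 window held no searched word. TGACGT also crossed the first start of PLK4, and 7.98% of all windows held it. Among other messages that rose in both lines, both AURKB windows held CCAAT and no cell-cycle word. The second PLK4 window held no searched word, and AURKA and TTK had no matched window. A match describes letters in a window and is not a measured binding site.

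**Figure D1:**
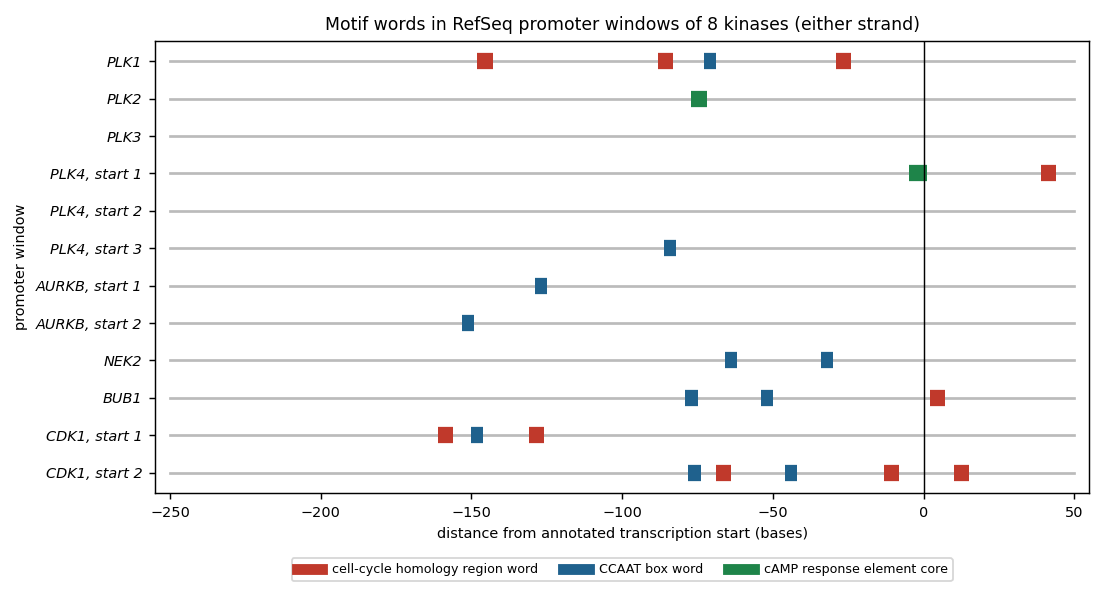
Positions of the searched words in 12 promoter windows of 8 kinases, as distance in bases from the annotated start (vertical line), with a colour for each motif. CCAAT words lie in 8 of the 12 windows, and the PLK3 window is empty.

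YES1 itself fell in both lines. In MDA-MB-231 its siNS libraries stood at 71.3, 57.1, 63.8 and 60.2 CPM (read counts scaled to library size, with TMM factors set within the line), and its siYES1 libraries at 13.5, 14.4, 14.3 and 12.7. In SUM159PT the siNS libraries stood at 99.5, 149.4, 151 and 135 CPM and the siYES1 libraries at 15.8, 15.7, 19.4 and 17.9. The groups did not overlap in either line. Total counts ran from 15680459 to 23451253 per library, which put 197 to 8471 reads on each member in each library. SUM159PT siNS replicate 1 stood apart, with a chi-squared per degree of freedom of 29.98 to 44.7 against the other 3 siNS libraries. Those 3 differed among themselves by 6.504 to 12.2. List counts that changed when replicate 1 was left out are also given without it, as are some other results. The MDA-MB-231 controls were not uniform either. Their pairs differed by 17.1 to 23.7, except replicates 3 and 4 at 4.13, while MDA-MB-231 siYES1 pairs differed by 2.15 to 6.98. ESR1 and PGR were under 1 CPM in both lines, while ERBB2 averaged 119 CPM in MDA-MB-231 siNS and 66.2 in SUM159PT siNS. The summed level of 8 mesenchymal markers was 6231 to 8131 CPM in SUM159PT siNS and 9756 to 10264 with siYES1, that of 10 epithelial markers 418 to 490.4 and 236 to 251, that of 5 fibroblast markers 1704 to 1965 and 637 to 740.3, and that of 4 endothelial markers 15.8 to 24.1 and 1.72 to 2.33. In MDA-MB-231 the mesenchymal sum was 3371 to 3522 and 4376 to 4459, the epithelial 2075 to 2710 and 2249 to 2322, the fibroblast 62.5 to 73.9 and 26.1 to 31.8, and the endothelial 7.46 to 12.6 and 4.62 to 7.07. Of the immune markers, PTPRC was at 0.532 to 0.915 CPM in SUM159PT siNS and at 0 with siYES1, LYZ was at 0.158 to 0.728 CPM in MDA-MB-231 siNS and 0.99 to 1.81 with siYES1, CD68 was under 1 CPM in every library, and CD3E, a T cell marker, was at 0 counts in every SUM159PT library. Mitochondrial genes took 2.14% to 2.501% of counts in SUM159PT siNS and 1.79% to 2.10% with siYES1. The part of these shifts in the kinase results was not tested.

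With siYES1, 8 of the 10 kinases rose and 0 fell in MDA-MB-231, where 24.9% of the 14319 genes tested rose and 52.4% changed in either direction, and 9 of 10 rose and 0 fell in SUM159PT, where 17.7% of 14469 rose and 36.8% changed. Genes were called at an edgeR adjusted p under 0.05. The same 8, PLK1, PLK4, AURKA, AURKB, NEK2, TTK, BUB1 and CDK1, rose in both lines, against 9.50% of the 12689 genes tested in both. The kinases, and the lists below, were chosen with earlier results of these data known. Setting their counts beside the shares of all genes is therefore not an independent test. Their folds ran from 1.51 to 3.04 in MDA-MB-231 and, with PLK3 added, from 1.69 to 2.88 in SUM159PT. All 4 siYES1 libraries lay above all 4 controls for 8 of 10 in MDA-MB-231, against 22.4% of genes, and for 9 of 10 in SUM159PT, against 18.2%. The median log2 change of the 10 was 0.89 in MDA-MB-231, where that of all genes was 0.00, and 0.96 in SUM159PT, where it was -0.03. In bulk RNA, more cells in late cell cycle and more message per cell cannot be told apart.

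**Figure D2:**
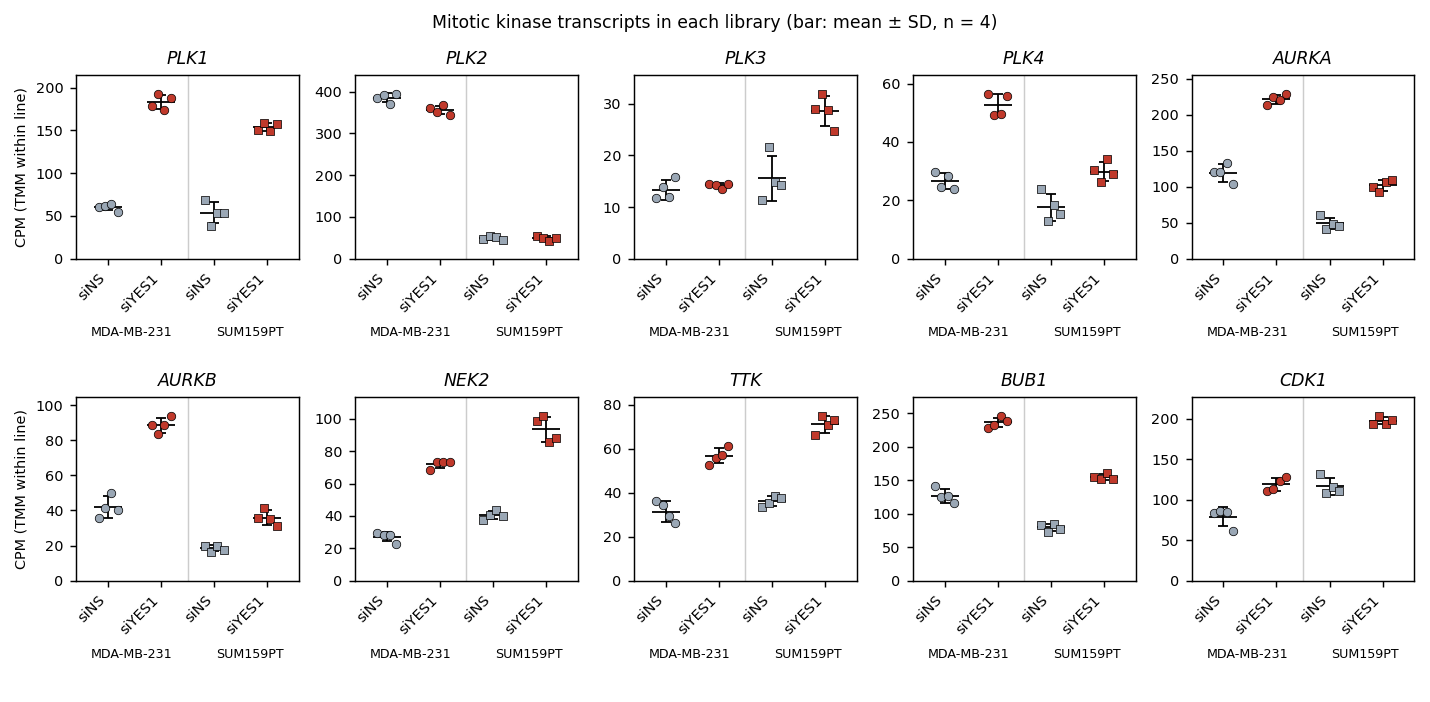
Level of each kinase in each library, in CPM on a linear axis from 0, by line and siRNA. Points are libraries and bars the mean ± SD of 4. In SUM159PT every siYES1 point lies above every siNS point except for PLK2.

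PLK1, the Polo kinase of mitotic entry, spindle assembly and cytokinesis (ENSG00000166851, chromosome 16, 23677656 to 23690367, plus strand of GRCh38), had the largest log2 change of the 10 in both lines. In MDA-MB-231 its siNS libraries stood at 60.8, 61.5, 63.9 and 54.9 CPM and its siYES1 libraries at 178, 192, 174 and 188. The groups did not overlap, and the siYES1 libraries were close to 3 times as high as the controls. The log2 change was 1.604 ± 0.07 (SE; edgeR adjusted p = 8.91e-11), rank 58 of 14319 genes. In SUM159PT the siNS libraries spread more, at 68.5, 38.3, 53.4 and 53.4 CPM, with replicate 1 highest and replicate 2 lowest. The siYES1 libraries were tight at 151, 159, 149.6 and 157 CPM, all above every control, and the log2 change was 1.53 ± 0.13 (edgeR adjusted p = 3.19e-06), rank 55 of 14469. Antisense transcript AC008870.3 shares 553 exonic bases with PLK1 and held 26 counts over the 16 libraries, against 32556 for PLK1.

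PLK4, the kinase that licenses a single new centriole at each old one (ENSG00000142731, chromosome 4, 127880861 to 127899195, plus strand), was among the scarcer members. MDA-MB-231 libraries rose from 29.5, 24.6, 28.2 and 23.9 CPM with siNS to 56.3, 49.2, 49.6 and 55.7 with siYES1, with no overlap. The log2 change was 0.99 ± 0.09 (edgeR adjusted p = 1.55e-07). In SUM159PT the siNS libraries stood at 23.7, 12.8, 18.4 and 15.4 CPM and the siYES1 libraries at 30.2, 26.3, 34.0 and 28.8. Control replicate 1 came nearest to the siYES1 libraries, and the groups still did not overlap. The change was 0.76 ± 0.17 (edgeR adjusted p = 0.00335), and without that control library it was 0.93.

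Both Aurora kinases rose in both lines. AURKA, which matures centrosomes and activates PLK1 (ENSG00000087586, chromosome 20, 56369389 to 56392337, minus strand), was the more abundant. Its MDA-MB-231 libraries stood at 121, 119.9, 133 and 103 CPM with siNS and 213, 224, 220.0 and 228 with siYES1, and its SUM159PT libraries at 60.3, 41.5, 48.2 and 45.7 and 99.7, 92.4, 107 and 109. No group overlapped its control, and control replicate 1 was again the highest of the SUM159PT siNS libraries. The log2 changes were 0.89 ± 0.08 and 1.06 ± 0.11 (edgeR adjusted p = 9.56e-08 and 1.35e-05). AURKB, the kinase of the chromosomal passenger complex (ENSG00000178999, chromosome 17, 8204733 to 8210600, minus strand), stood at 35.8, 41.6, 50.2 and 40.4 CPM with siNS and 88.6, 83.4, 88.7 and 93.7 with siYES1 in MDA-MB-231. In SUM159PT it stood at 19.8, 16.5, 19.96 and 17.5 and 35.6, 41.4, 35.3 and 31.1 CPM, again with no overlap in either line. Its log2 changes were 1.08 ± 0.09 and 0.96 ± 0.12 (edgeR adjusted p = 8.81e-08 and 5.03e-05). The processed copy AURKAP1 held 6 counts in all libraries and AURKAP2 none, against 35180 for AURKA.

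NEK2, which releases the linker between centrosomes (ENSG00000117650, chromosome 1, 211658657 to 211675630, minus strand), had the second largest change in both lines. It stood at 29.2, 28.4, 28.1 and 22.8 CPM in MDA-MB-231 siNS and 68.3, 73.1, 73.1 and 73.3 with siYES1. In SUM159PT it stood at 37.6, 40.7, 43.4 and 39.8 and 98.4, 102, 85.8 and 88.4 CPM, and here control replicate 1 was the lowest of its group. The groups did not overlap in either line. The log2 changes were 1.41 ± 0.09 and 1.21 ± 0.09 (edgeR adjusted p = 1.87e-09 and 5.99e-07).

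The 2 checkpoint kinases rose by close to 1 log2 unit. TTK, the kinase that recruits the other checkpoint proteins to free kinetochores (ENSG00000112742, chromosome 6, 80003887 to 80042527, plus strand), stood at 36.2, 34.2, 29.2 and 26.0 CPM in MDA-MB-231 siNS and 52.8, 55.9, 57.2 and 61.0 with siYES1, and at 33.3, 35.1, 38.7 and 37.7 and 66.1, 74.7, 70.5 and 72.9 in SUM159PT. No siYES1 library fell within the range of its controls. The log2 changes were 0.85 ± 0.10 and 0.97 ± 0.09 (edgeR adjusted p = 2.45e-06 and 3.53e-06). BUB1, which marks the inner centromere for the Aurora B complex and takes part in the checkpoint (ENSG00000169679, chromosome 2, 110637698 to 110678114, minus strand), stood at 141, 125, 126 and 116 CPM and 228, 232, 245 and 238 in MDA-MB-231, and at 83.4, 72.8, 84.5 and 77.1 and 155, 151, 160.4 and 152 in SUM159PT. It had the smallest standard error of the 10 in SUM159PT, with changes of 0.89 ± 0.07 and 0.96 ± 0.07 (edgeR adjusted p = 4.43e-08 and 1.04e-06).

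CDK1 (ENSG00000170312, chromosome 10, 60778331 to 60794852, plus strand) had the smallest change of the 8 in MDA-MB-231 and was level with PLK4 within their errors in SUM159PT. It stood at 83.1, 86.5, 84.3 and 61.7 CPM in MDA-MB-231 siNS and 111, 114, 123 and 128 with siYES1, with control replicate 4 well under the other 3 controls. In SUM159PT it stood at 131, 109, 116 and 111 and 194, 203, 194 and 199 CPM. The groups did not overlap in either line, and the folds were 1.51 and 1.69 (log2 0.59 ± 0.10 and 0.76 ± 0.08; edgeR adjusted p = 8.88e-05 and 9.76e-06). A test against a change of 1.5-fold, rather than against none, did not call CDK1 in either line (adjusted p = 0.909 and 0.0598) and left 7 of the 10 kinases called in MDA-MB-231 and 6 in SUM159PT.

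PLK2 passed in neither line and PLK3 in one. PLK2, a Polo kinase of stress responses and of G1 (ENSG00000145632, chromosome 5, 58453982 to 58460260, minus strand), stood at 386, 391, 369.8 and 394 CPM in MDA-MB-231 siNS and 360.3, 350.3, 368 and 345 with siYES1, and at 46.0, 54.9, 50.8 and 44.7 and 53.3, 48.5, 43.1 and 49.8 in SUM159PT. In MDA-MB-231 every siYES1 library lay just below every control, as was the case for 24.7% of genes, and the log2 difference of -0.11 ± 0.06 did not pass the test (edgeR adjusted p = 0.146; 95% CI -0.25 to 0.02). With total counts as the scaling it was -0.16 and passed (adjusted p = 0.042). In SUM159PT the difference was -0.01 ± 0.10 (adjusted p = 0.935; 95% CI -0.23 to 0.20), so its interval leaves room for a change of about 0.2 log2 units in either direction.

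PLK3, a Polo kinase induced by growth factors and DNA damage (ENSG00000173846, chromosome 1, 44800225 to 44805990, plus strand), rose in SUM159PT and did not pass in MDA-MB-231. Its MDA-MB-231 libraries stood at 11.7, 13.9, 11.9 and 15.7 CPM with siNS and 14.5, 14.3, 13.5 and 14.5 with siYES1, with overlapping groups and a log2 difference of 0.09 ± 0.11 (edgeR adjusted p = 0.527; 95% CI -0.15 to 0.33). Its SUM159PT libraries stood at 11.3, 21.6, 14.9 and 14.3 CPM with siNS and 29.02, 31.9, 28.9 and 24.7 with siYES1. Control replicate 2 was highest and replicate 1 lowest, the reverse of their order for PLK1, and all 4 siYES1 libraries were above every control. The log2 change in SUM159PT was 0.88 ± 0.17 (edgeR adjusted p = 0.00149), and 0.75 without control replicate 1. The overlapping gene TCTEX1D4 shares 78 exonic bases with PLK3 and held 65 counts over all libraries, against 5328 for PLK3.

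**Figure D3:**
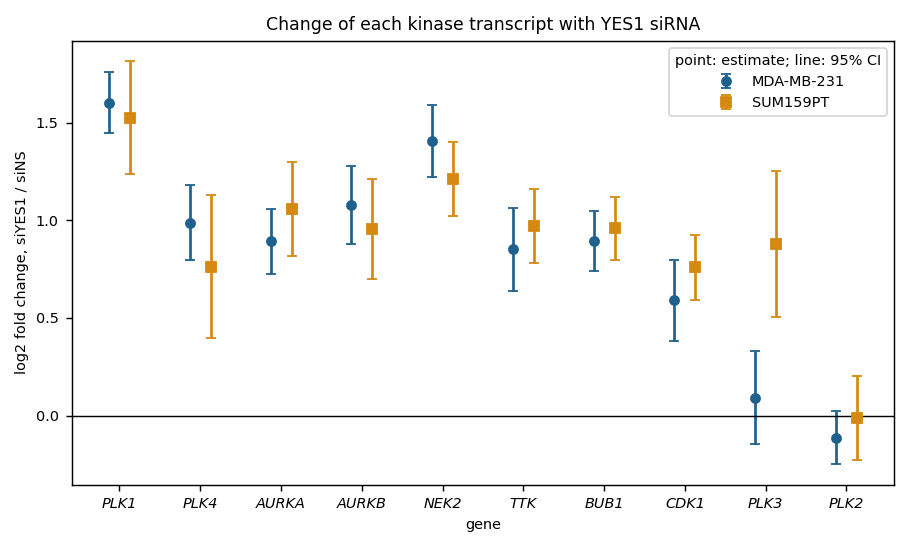
Log2 fold change of each kinase with siYES1 in each line, with the 95% confidence interval of the edgeR fit. The 8 kinases at the left lie above 0 in both lines, as does PLK3 in SUM159PT, and the intervals of PLK2 include 0.

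The difference between lines was tested as an interaction over all 16 libraries. 1 of the 10 kinases, PLK3, passed, while 24.3% of the 16299 genes tested passed in either direction, 15.4% with a more positive change in SUM159PT and 8.85% with a more negative one. Its change was larger in SUM159PT by 0.89 ± 0.22 log2 units (edgeR adjusted p = 0.00521; 95% CI 0.43 to 1.35). For the other 9 the difference lay between -0.13 and 0.27, with intervals inside -0.54 to 0.55 and adjusted p of 0.151 to 0.969. CDK1 had the lowest p of these 9, with a difference of 0.27 (95% CI -0.01 to 0.54). Without MDA-MB-231 siNS replicate 4, the low control, the CDK1 difference was 0.37 and passed (adjusted p = 0.0194). Without SUM159PT siNS replicate 1 the AURKA difference was 0.31 and passed (adjusted p = 0.0465).

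Control levels of 9 of the 10 kinases differed between the lines, though line, table and preparation cannot be told apart there. On a scale shared by all 16 libraries, 4 of the 10 were higher and 5 lower in SUM159PT siNS than in MDA-MB-231 siNS, where 38.0% and 39.0% of all genes were, and 77.0% differed. The control libraries of the lines did not overlap for NEK2 and CDK1, higher in SUM159PT as were 32.5% of genes without overlap, nor for PLK2, AURKA, AURKB and BUB1, lower as were 34.2%. PLK2 differed most: 369 ± 11.9 CPM in MDA-MB-231 and 51.5 ± 5.06 in SUM159PT (SD, n = 4 each), a log2 difference of -2.84 ± 0.08. AURKA (-1.15), AURKB (-1.05), BUB1 (-0.55) and PLK4 (-0.47) were also lower in SUM159PT by log2 difference. NEK2 (0.70), CDK1 (0.69) and TTK (0.34) were higher. PLK1 did not pass, with a difference of -0.04 ± 0.11 and a 95% CI of -0.28 to 0.19. PLK3 passed at 0.35 (edgeR adjusted p = 0.0461) but not without SUM159PT siNS replicate 2, the highest control (0.15, adjusted p = 0.329), nor under most other alternatives.

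Levels were compared between genes as CPM per kilobase of exon, with the exons of all annotated transcripts of a gene merged. The order between genes therefore also depends on which transcripts are annotated. In MDA-MB-231 siNS the order was PLK2 (80.8 ± 2.26 CPM per kb; mean ± SD, n = 4), AURKA (40.7 ± 4.22), BUB1, CDK1, AURKB, PLK1 (12.7 ± 0.805), NEK2, TTK, PLK4 and PLK3 (3.83 ± 0.548). Neighbours whose libraries overlapped were BUB1 with CDK1, CDK1 with AURKB, NEK2 with TTK and TTK with PLK4. With siYES1 the level of AURKA (75.6 ± 2.18) reached that of PLK2 (74.6 ± 2.20), and AURKB, BUB1 and PLK1 had overlapping ranges at 39.5 ± 1.88, 39.1 ± 1.22 and 38.5 ± 1.77. In SUM159PT siNS the order was CDK1 (29.7 ± 2.62), AURKA (16.7 ± 2.76), BUB1, NEK2, PLK1 (11.2 ± 2.59), PLK2 (10.3 ± 0.98), AURKB, TTK, PLK3 and PLK4 (3.92 ± 1.05). There the ranges of BUB1 and NEK2, NEK2 and PLK1, PLK1 and PLK2, AURKB and TTK, and PLK3 and PLK4 overlapped. With siYES1 CDK1 stayed first (50.2 ± 1.09), and PLK1 (32.3 ± 0.942) overlapped both AURKA (34.9 ± 2.61) and NEK2 (30.2 ± 2.47). The lowest places there went to PLK2, PLK3 and PLK4, each overlapping the next.

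Genes whose products switch CDK1 on and off were examined next. Of 19 partners and regulators, 14 rose and 0 fell in MDA-MB-231, and 14 rose and 0 fell in SUM159PT, with 11 rising in both and medians of 0.88 and 0.68 log2 units. For these lists and those that follow, the shares of all genes tested are 24.9% higher and 27.5% lower in MDA-MB-231, 17.7% higher and 19.0% lower in SUM159PT, and 9.50% higher in both. CKS1B, a small CDK subunit, rose by 1.76 ± 0.10 in MDA-MB-231 and 1.247 ± 0.09 in SUM159PT (edgeR adjusted p = 6.49e-10 and 5.26e-07). CCNA2, cyclin A2, rose by 1.16 and 1.34, and CKS2 by 0.88 and 1.18. The list also holds brakes on CDK1. WEE1, which phosphorylates CDK1 to hold it inactive, rose from 23.2 to 70.2 CPM in MDA-MB-231 and from 44.1 to 75.7 in SUM159PT, less in the latter (log2 difference -0.73, edgeR adjusted p = 0.000315). CDKN1A, the CDK inhibitor p21, rose by 0.26 and 1.04, more in SUM159PT (difference 0.88, edgeR adjusted p = 5.22e-05). 2 further genes of the list, chosen after their values were seen, differed most between the lines. PKMYT1, the other inhibitory kinase of CDK1, rose by 1.15 in MDA-MB-231 and had a log2 difference of -0.35 in SUM159PT that did not pass (difference between lines -1.40). CDC25A, a phosphatase that activates CDKs, rose by 0.91 and had -0.25, not called (difference -1.06). Without SUM159PT siNS replicate 1, the SUM159PT values of these 2 were -0.11 and 0.0046, and their differences between lines were -1.22 and -0.87 and passed. Then 17 genes of the list rose in SUM159PT, and the list median there was lower, at 0.49.

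Partners of the Polo and Aurora kinases came next. Of 14 Polo partners and regulators, 11 rose and 0 fell in MDA-MB-231, and 9 rose and 0 fell in SUM159PT, with 8 rising in both and medians of 0.72 and 0.53. In SUM159PT 10 rose when siNS replicate 1 was left out. RACGAP1 and ECT2, which PLK1 brings together for cytokinesis, rose by 1.38 ± 0.09 and 1.11 ± 0.08 in MDA-MB-231, and by 1.16 ± 0.08 and 0.78 ± 0.09 in SUM159PT. CEP152, the centriole scaffold that recruits PLK4, rose by 1.08 and 0.85, and CENPJ, which sets centriole length, by 1.02 and 0.99. Of 13 Aurora partners, 11 rose and 1 fell in MDA-MB-231, and 10 rose and 1 fell in SUM159PT. The SUM159PT counts were 11 and 1 without siNS replicate 1. TPX2, the spindle activator of AURKA, rose by 0.87 ± 0.09 and 0.87 ± 0.07. BIRC5 (survivin) and CDCA8 (borealin), subunits of the AURKB complex, rose by 1.27 and 1.08 in MDA-MB-231 and by 0.99 and 0.75 in SUM159PT. KIF2C, a microtubule depolymerase that AURKB regulates, rose by 1.03 and 1.14. NEDD9, a focal adhesion scaffold that can activate AURKA, was the exception: it fell from 91.9 to 38.9 CPM in MDA-MB-231 and from 12.4 to 3.595 in SUM159PT (log2 -1.24 ± 0.09 and -1.79 ± 0.17; edgeR adjusted p = 1.66e-08 and 5.4e-06).

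Among 15 partners of TTK and BUB1 in the spindle checkpoint, 13 rose in MDA-MB-231 and 8 did so in SUM159PT, with 0 falling in either. The medians were 1.04 and 0.48 log2 units. Without SUM159PT siNS replicate 1, 10 rose in SUM159PT and the median there was 0.77. CDC20, the target of the checkpoint, rose by 1.13 ± 0.07 and 0.80 ± 0.08, BUB1B (BUBR1) by 1.16 and 1.00, NDC80 of the outer kinetochore by 1.15 and 0.83, and BUB3 by 0.54 and 0.48. KNTC1, a subunit of the RZZ complex, rose by 1.23 ± 0.09 in MDA-MB-231 and had 0.48 ± 0.22 in SUM159PT, which did not pass (edgeR adjusted p = 0.104), but without siNS replicate 1 it rose there by 0.77 (adjusted p = 0.000207). Of 20 tested other kinases of mitosis, 12 rose and 2 fell in MDA-MB-231, and 9 rose and 1 fell in SUM159PT. The SUM159PT counts were 12 and 0 without siNS replicate 1. CDK2, the S-phase relative of CDK1, rose by 1.599 ± 0.09 and 1.15 ± 0.11, CIT (citron kinase) by 1.501 and 0.84, and MELK by 0.91 and 0.75. HASPIN, the histone H3 kinase that places the AURKB complex, rose by 1.20 in MDA-MB-231 and had 0.62, not called, in SUM159PT, where it rose by 1.03 without siNS replicate 1 (edgeR adjusted p = 0.00166).

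Genes tied to undoing the work of the kinases were read as 2 groups. Of 18 opposing phosphatase genes, 5 rose and 4 fell in MDA-MB-231, and 5 rose and 1 fell in SUM159PT, with medians of 0.05 and 0.03. The counts in MDA-MB-231 are near the shares of all genes (24.9% higher, 27.5% lower). PPP2R2A, a B55 subunit of the phosphatase PP2A that reverses CDK1 phosphorylation, rose by 0.59 ± 0.08 and 0.79 ± 0.09, and the catalytic subunit PPP2CB by 0.34 and 0.68. PPP1CB, a catalytic subunit of the phosphatase PP1, rose by 0.23 and 0.37. The PP2A subunits PPP2R5B and PPP2R2D fell by 0.61 and 0.50 log2 units in MDA-MB-231 and did not pass in SUM159PT. The second group held 15 genes of the anaphase-promoting complex, its activators, its conjugating enzymes and its inhibitor FBXO5. The complex destroys cyclin B, PLK1, the Aurora kinases and NEK2. Of the 15, 9 rose in MDA-MB-231 and 7 did so in SUM159PT, with 0 falling. When siNS replicate 1 was left out, 9 rose and 0 fell in SUM159PT. UBE2C and UBE2S, the conjugating enzymes, rose by 1.13 and 0.92 in MDA-MB-231 and by 1.24 and 0.85 in SUM159PT. CDC23, a core subunit, rose by 1.11 and 0.89.

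Of 17 genes for transcription factors and repressors of cell-cycle genes and their partners, 11 rose and 0 fell in MDA-MB-231. In SUM159PT 3 rose and 2 fell. The list medians were 0.30 and -0.14, beside medians of 0.00 and -0.03 for all genes. FOXM1, an activator of PLK1, AURKB and CDK1, rose by 0.87 ± 0.08 in MDA-MB-231. In SUM159PT it had 0.29 ± 0.17 and did not pass (edgeR adjusted p = 0.204), but without siNS replicate 1 it rose by 0.50 (adjusted p = 0.000915), and 6 genes of the list rose there in place of 3, with a median of 0.02. Its difference between lines did not pass (-0.48, edgeR adjusted p = 0.0723). E2F2 rose by 0.65 in MDA-MB-231 and fell by 1.27 in SUM159PT, and RBBP4, a subunit of MuvB, rose by 0.39 and fell by 0.33. Without SUM159PT siNS replicate 1 the SUM159PT values were -0.81 and -0.20, and both still passed. The difference between lines passed for both (-1.82 and -0.62 log2 units; edgeR adjusted p = 0.000467 and 0.00165). RBL1, the pocket protein p107, rose by 1.118 in MDA-MB-231 and had -0.38, not called, in SUM159PT, and its relative RBL2 rose by 0.42 in SUM159PT. TFDP1 rose by 0.65 in MDA-MB-231 and had 0.10, not called, in SUM159PT, where it rose by 0.25 without siNS replicate 1 (edgeR adjusted p = 0.00212).

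**Figure D4:**
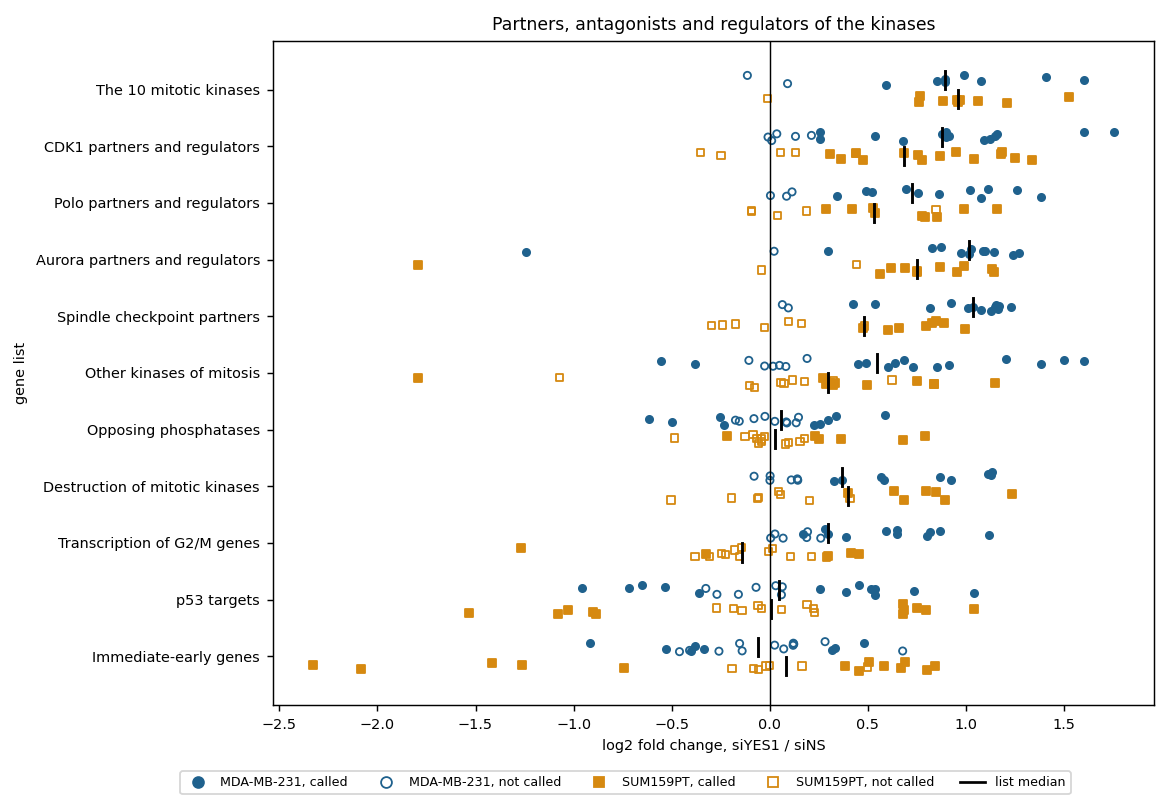
Log2 fold change with siYES1 of the 10 kinases and of the genes of 10 lists of partners and regulators, in each line, with jitter along the vertical axis. Filled points passed the test, open points did not, and black bars are list medians, which lie at 0.89 and 0.96 for the kinases and at 0.05 and 0.03 for the opposing phosphatases.

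Since PLK2 and PLK3 are known as p53 and immediate-early genes, those lists were read beside them. Of 20 tested p53 targets, 8 rose and 5 fell in MDA-MB-231, and 6 rose and 5 fell in SUM159PT, with medians of 0.04 and 0.01. Beside them, 24.9% of all genes were higher and 27.5% lower in MDA-MB-231, and 17.7% and 19.0% in SUM159PT. When SUM159PT siNS replicate 1 was left out, 7 p53 targets rose and 7 fell in SUM159PT. CCNG1 rose by 1.04 ± 0.10 and 0.68 ± 0.10, and the death receptor TNFRSF10B by 0.74 and 0.75. TP53I3 fell by 0.96 and 1.08. SESN2 fell by 0.53 in MDA-MB-231 and rose by 0.68 in SUM159PT, and TP53INP1 did the opposite, with 0.53 and -1.53.

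Of 20 immediate-early genes, 3 rose and 5 fell in MDA-MB-231, while 8 rose and 5 fell in SUM159PT. The SUM159PT counts were 9 and 7 without siNS replicate 1. In MDA-MB-231 the count lower is near the 27.5% of all genes and the count higher below their 24.9%, and in SUM159PT the shares of all genes are 17.7% higher and 19.0% lower. JUN, IER3 and ATF3 fell in MDA-MB-231 (log2 -0.40, -0.38 and -0.34) and rose in SUM159PT (0.58, 0.51 and 0.67), and the difference between lines passed for each (edgeR adjusted p = 2.34e-06, 3.15e-05 and 0.00385). FOSL1 rose by 0.33 and 0.84, more in SUM159PT (difference 0.61). EGR1 and FOS went the other way in SUM159PT: EGR1 fell from 34.8 to 6.94 CPM (log2 -2.33 ± 0.17) and FOS from 17.1 to 4.04 (-2.08 ± 0.16), while neither passed in MDA-MB-231 (-0.26 and 0.28). DUSP5 fell by 0.92 and IER5 rose by 0.48 in MDA-MB-231, and neither passed in SUM159PT, though DUSP5 fell there by 0.24 without siNS replicate 1 (edgeR adjusted p = 0.018). In the plot of both lines PLK3 sits beside ZFP36, an mRNA decay factor chosen here after its value was seen (0.12, not called, and 0.80), and PLK2 sits near the origin.

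**Figure D5:**
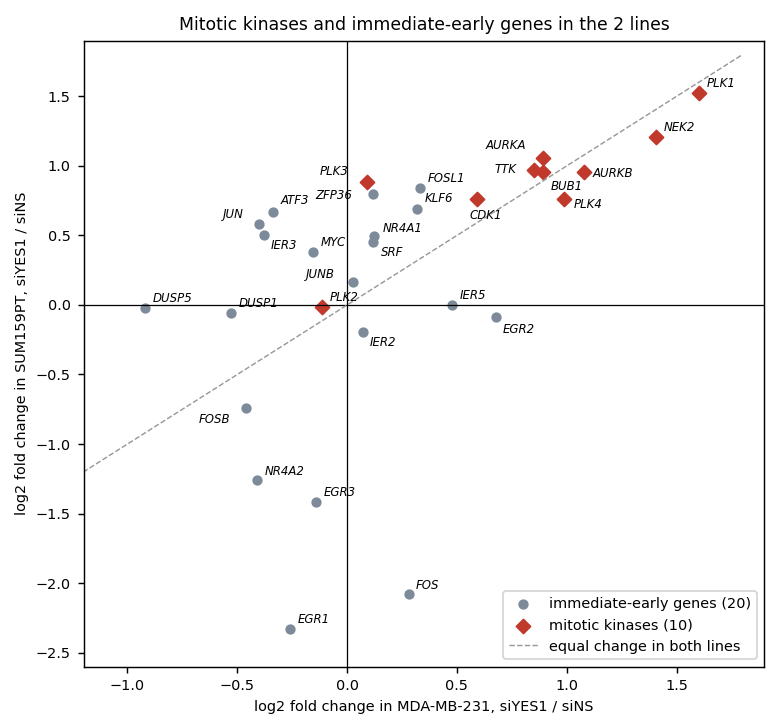
Log2 fold change with siYES1 in MDA-MB-231 (x axis) and SUM159PT (y axis) of the 10 kinases and 20 immediate-early genes, with a dashed line where both lines changed equally. 8 kinases lie near the dashed line at the upper right, and PLK3 lies at 0.09 and 0.88.

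Within groups, the kinases varied together to different degrees. After each library was centred on its own line and siRNA group, Pearson's r of log2 CPM over the 16 libraries had a median of 0.46 over the 28 pairs of the 8 kinases that rose in both lines, from -0.17 to 0.83. The 16 pairs of PLK2 or PLK3 with these had a median of -0.39. These points share library depth and composition, and some pairs rest on the 4 SUM159PT siNS libraries. PLK1 with PLK4 had r = 0.77 over 16 libraries and 0.09 over the 12 outside that group, while PLK3 with AURKA had -0.87 and -0.82. CDK1 had r = 0.57 and 0.80 with NEK2, and 0.56 and 0.79 with TTK, over the same 16 and 12 libraries.

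By the same measure over 9392 coding genes at 5 CPM or more in both lines, PLK1 was most like CCNA2 (r = 0.95), BRCA2 (0.93) and FOXM1 (0.92). CDK1 was most like NDC80 (0.95), CDKN3 (0.94) and CDCA3 (0.92), AURKA like FANCD2 (0.94), MELK and SKA3 (both 0.92), and PLK4 like ASPM, OSBPL3 and LZIC (each 0.92). BUB1 was most like CDC27 (0.88), HAUS6 (0.87) and NUDT21 (0.85), TTK like YY1AP1, PIGK and MFF (each 0.89), AURKB like UBA7 (0.82), SFT2D1 (0.78) and KIFC1 (0.78), and NEK2 like PAFAH1B2 (0.80), BBIP1 (0.79) and EIF3L (0.78). PLK2 was most like TPRG1L (0.90), PMAIP1 (0.87) and POPDC3 (0.86), and PLK3 like AKAP17A (0.92), ZMIZ2 and SH3GL1 (both 0.91). The genes named are the highest of 9392 correlations for each kinase, over 16 libraries. None was recomputed without the SUM159PT siNS libraries.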

How the data were processed

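Polyadenylated RNA was selected with poly-T beads and copied from random hexamers, per the labels' protocols, which name both a directional and a non-directional variant. The submitters' processing notes name HISAT2 2.0.5, featureCounts 1.5.0-p3 and the build hg38. Raw whole-number counts per gene, in 1 table per line, are what the authors deposited. Which annotation release and strand setting they used was not stated in them or in the labels. All 58735 gene IDs were found in GENCODE 29, which gave symbols, exon lengths and GRCh38 coordinates.

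The siYES1 effect was estimated separately for each line, from 8 libraries, with edgeR 4.0.16 under R 4.3.3: TMM scaling, filterByExpr, quasi-likelihood F test, Benjamini-Hochberg adjustment over all tested genes. Differences between lines and between controls came from 1 fit of all 16 libraries. A gene was called at an adjusted p under 0.05. Levels are TMM-scaled CPM within a line. Scripts were tested on simulated data. No libraries were duplicates.

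The members and lists were chosen with earlier results of these data known. Named are all 10 members, per list and line up to 3 genes with the lowest adjusted p, genes called in opposite directions, and the 3 genes most like each member. CDC20, CDKN1A and GADD45A stand in 2 lists each. PLK5 and AURKC, and SPATA18, did not pass the filter. The summed immune markers are not reported here. Alternatives were RLE or total-count scaling, other filters, DESeq2 1.42.0, limma-voom 3.58.1, glmTreat at 1.5-fold, a joint fit, replicate number as a block and leaving out each library. Scaling factors within each line for the interaction, and list counts without SUM159PT siNS replicate 1, were added after seeing the data.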

Additional observations from a re-analysis of the deposited data

Results flagged for a closer look

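In MDA-MB-231 siNS, replicate 4 held CDK1 at 61.7 CPM, apart from the other 3 libraries at 83.1 to 86.5 CPM. In MDA-MB-231 siYES1, replicate 1 held NEK2 at 68.3 CPM, below the other 3 at 73.1 to 73.3 CPM, which lay unusually close together. Chance gives such a gap in about 1 of 20 groups, and 2 of the 40 groups of 4 libraries examined here had one. The difference in the siYES1 effect between the lines passed its test for PLK3, at 0.89 log2 units (edgeR adjusted p = 0.00521), with 4 of 4 SUM159PT siYES1 libraries above every control and overlapping groups in MDA-MB-231.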

How the results depend on the processing

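Of 800 values of single kinases under alternatives, 757 kept their direction and their side of the threshold. The 8 and 9 kinases called higher in MDA-MB-231 and SUM159PT were as many under RLE and total-count scaling, both filters, DESeq2, limma-voom, the joint fit and without any 1 library. Replicate numbers did not pair the samples (same-numbered correlations -0.10 to 0.07): with them as a block 8 and 9 kinases rose, PLK3 differed between lines by 0.91 (adjusted p = 0.00446) and no call of a kinase changed. The block was not run for the comparison of controls, where it could not be fitted. At 1.5-fold, glmTreat called 607 genes higher and 1163 lower in MDA-MB-231 and 302 and 835 in SUM159PT. It also lost PLK3 and PLK4 in SUM159PT (adjusted p = 0.144 and 0.357). The joint fit called 2230 genes higher and 3668 lower in MDA-MB-231 (37.8% of calls higher, against 47.6%). Total counts as the scaling moved the median of all genes in SUM159PT from -0.03 to -0.20, and 1394 genes were then higher and 4173 lower (25.04% of calls higher, against 48.2%), with 9 kinases higher. In MDA-MB-231 it called 1 kinase lower, PLK2. For the difference between lines it called 1375 genes higher and 2795 lower (33.0% higher, against 63.5%, and 49.0% with scaling within each line), and turned PLK1 (-0.21), PLK2 (-0.022), TTK (-0.0016) and BUB1 (-0.059), none of them called. The PLK1 difference, 0.02, was also below 0 under RLE scaling (-0.036), DESeq2 (-0.036), no filter (-0.021), a mean of 1 CPM (-0.0037) and scaling within each line (-0.081). PLK2 in SUM159PT was 0.029 in the joint fit. Without 1 library, the differences between lines ranged from -0.10 to 0.10 for PLK1 and -0.11 to 0.043 for AURKB, PLK2 in SUM159PT from -0.056 to 0.047, PLK1 between controls from -0.16 to 0.081, and the kinases with a larger change in SUM159PT from 1 to 2. The causes of these moves were not tested. The precision differed between kinases, and the 95% intervals in the text give it for each value that did not pass.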

Other observations

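Relatives of NEK2 and the Tousled-like kinases, which act in chromatin assembly, moved in several directions. NEK8, a kinase of primary cilia, fell by 0.55 log2 units in MDA-MB-231 and 1.79 in SUM159PT, where its mean control level was under 1 CPM and the call was lost without siNS replicate 1 (-1.62, edgeR adjusted p = 0.0792). NEK9, which acts upstream of NEK6 and NEK7, rose by 0.49 in MDA-MB-231 and had -0.10, not called, in SUM159PT (difference between lines -0.50, edgeR adjusted p = 0.0152), while NEK6 rose by 0.32 and NEK7 by 0.28 in SUM159PT and neither passed in MDA-MB-231. Without SUM159PT siNS replicate 1 the NEK6 change was 0.21 and still passed. TLK1 fell by 0.38 in MDA-MB-231, and TLK2 rose by 0.33 in SUM159PT. These genes were chosen after their values were seen. The nearest relatives of the 10, PLK5 and AURKC, averaged at most 0.118 and 0.37 CPM in any group and were not tested.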
